A study of Mus musculus with 4 samples.

Results

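The mitotic cyclins and the enzymes that carry a cell into and out of mitosis were followed in hematopoietic stem cells of wild-type and Dis3-/- mice. The set holds 10 genes chosen by name for their function: the cyclins Ccna2, Ccnb1 and Ccnb2, the kinases Cdk1, Plk1 and Aurka, the phosphatases Cdc25b and Cdc25c, and the mitotic exit factors Cdc20 and Ube2c. They were chosen with earlier results of these data known, so their shares beside all tested genes are a description. All 10 were among the 24411 genes of the expression tables, and all 10 were among the 12244 genes with enough reads to be tested. Every one of the 10 stood higher in both Dis3-/- libraries than in both wild-type libraries, as did 31.9% of all tested genes. The increases ran from 1.79-fold for Cdc25b to 3.95-fold for Ccnb2. Of the 10, 9 passed the test between genotypes and Cdc25c did not. Among all tested genes, 12.7% passed it with a higher level in Dis3-/- libraries.

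Wild-type donors carried floxed Dis3 alleles (Dis3fl/fl) and no Cre, and Dis3-/- donors carried Dis3fl/fl together with Mx-Cre, a Cre transgene driven by the interferon-responsive Mx promoter, which is not limited to stem cells. Both genotypes were on the C57BL/6 background; ages were not among the details used here. CD45.1 hosts received their marrow after lethal irradiation, and 4 weeks later the hosts were given 300 µg of pIpC, an inducer of interferon made of double-stranded RNA, at day 0 and again at day 2. Cells were sorted on day 4 as EPCR+ CD150+ CD48- and free of lineage markers, with 100 of them in each library, and their total RNA was sequenced by RamDA-seq, a full-length method for few cells. Each genotype had 2 libraries, and the design text gives 2 mice. That wild-type grafts also received pIpC is read from a protocol that both genotypes share. Dis3 encodes a catalytic subunit of the RNA exosome, which trims and degrades RNA, and the comparison asks what its loss does to gene expression in stem cells.

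Entry into mitosis is driven by Cdk1, a kinase that is inactive until it binds a cyclin, first cyclin A (Ccna2) and then the B cyclins (Ccnb1, Ccnb2). Wee1 and Myt1 (Pkmyt1) hold the complex in check by phosphorylating Cdk1, Cdc25 phosphatases remove that phosphate, and Aurora A (Aurka) activates Polo-like kinase 1 (Plk1), which pushes the balance towards Cdc25. Exit follows when Cdc20 loads the cyclins onto the anaphase-promoting complex (APC/C), a ubiquitin ligase that works with the conjugating enzyme Ube2c. Most hematopoietic stem cells rest outside the cell cycle, and these genes are transcribed mainly in cells that are preparing to divide.

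The promoters of these genes are shown because they are known to share 2 short elements: the cell cycle homology region, which binds the MuvB complex, and the CCAAT box, which binds NF-Y. RefSeq promoter windows (GRCm38.p6, 250 bases before to 50 bases after the start of transcription) were found for 8 of the 10 genes. Ccna2 and Cdc25c had no entry. For Aurka and Cdc25b the start used lies within the annotated gene, downstream of its outermost end. The 110 bases before the start are given first for 5 genes, 5′ to 3′ on the strand of the gene, with every match in capitals. The motifs searched on both strands were TTTGAA and its variant TTCGAA, for the cell cycle homology region, and CCAAT. On the other strand the first of these reads TTCAAA, the variant reads the same, and the box reads ATTGG. The stretches lie at chr13:100786487-100786596 (Ccnb1, minus strand), chr9:70421555-70421664 (Ccnb2, minus), chr10:69352913-69353022 (Cdk1, minus), chr4:118437344-118437453 (Cdc20, minus) and chr2:164769819-164769928 (Ube2c, plus).
Ccnb1: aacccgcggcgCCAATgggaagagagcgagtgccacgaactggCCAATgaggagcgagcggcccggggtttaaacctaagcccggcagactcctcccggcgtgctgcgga
Ccnb2: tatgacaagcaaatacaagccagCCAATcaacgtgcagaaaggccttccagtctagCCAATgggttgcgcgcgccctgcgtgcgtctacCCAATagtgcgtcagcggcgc
Cdk1: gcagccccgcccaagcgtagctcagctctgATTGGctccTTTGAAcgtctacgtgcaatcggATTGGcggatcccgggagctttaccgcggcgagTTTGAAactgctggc
Cdc20: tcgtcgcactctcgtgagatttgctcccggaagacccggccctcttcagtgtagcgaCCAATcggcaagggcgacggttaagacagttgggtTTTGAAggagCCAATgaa
Ube2c: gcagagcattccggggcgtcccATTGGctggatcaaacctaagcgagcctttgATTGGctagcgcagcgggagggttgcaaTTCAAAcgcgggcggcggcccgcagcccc

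In 4 of the genes a match to the 6-base element lies at or after the start, shown here with 30 bases around it. These sites are at chr9:70421533-70421562 (Ccnb2, minus), chr7:122159453-122159482 (Plk1, plus), chr2:172370521-172370550 (Aurka, minus) and chr2:131186943-131186972 (Cdc25b, plus).
Ccnb2: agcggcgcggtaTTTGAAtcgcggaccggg
Plk1: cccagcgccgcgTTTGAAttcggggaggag
Aurka: aaaaggagaaccTTTGAAttgtaacggctg
Cdc25b: ccgctgttatttTTCGAAtatataaggagg

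CCAAT was present in 8 of the 8 windows, against 37.4% of all 32851 promoters of the same length. TTTGAA or its variant TTCGAA was present in 7 of the 8, against 19.2% of all promoters. TTTGAA alone was present in 6 of the 8 (17.9% of all promoters), and Cdc25b alone among the 8 held TTCGAA (1.56% of all promoters). Ccnb1 held neither form within this window. In Cdk1 TTTGAA begins at bases -71 and -15, in Cdc20 at -18 and in Ube2c, on the other strand, at -29. At least 2 CCAAT boxes were present in 6 of the 8 windows, against 11.7% of all promoters. In 5 of the 8 (Ccnb1, Ccnb2, Cdk1, Aurka and Ube2c) a pair of CCAAT boxes on the same strand began 31 to 33 bases apart, a spacing held by 0.794% of all promoters and chosen after these sequences were seen. In Ube2c the boxes beginning at -186 and -183 overlap on opposite strands. These matches describe the letters of the windows and were tested for no function.

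The 4 libraries held 6085367 to 6818535 counts each. Dis3 itself stood at 54.5 ± 1.91 CPM (counts scaled to library size; SD, n = 2) in wild-type and 26.9 ± 4.68 CPM in Dis3-/- libraries, a log2 fold change of -1.02 ± 0.14 (SE; edgeR adjusted p = 2.58e-04); the sources used here do not give the floxed part. Over all tested genes 1561 (12.7%) were called higher and 1250 (10.2%) lower at an edgeR adjusted p below 0.05. With limma on log2(TPM + 1), where TPM is a level scaled by gene length and another test, unit and filter come together, 805 were higher and 973 lower, and the median of all genes was -0.11 on the log2 scale in place of 0.00. Of the genes that mark the sorted population, Procr (the gene for EPCR) had a log2 fold change of 0.04 (edgeR adjusted p = 0.853) and Slamf1 (CD150) one of -0.10 (adjusted p = 0.787). In bulk RNA of this kind a larger share of dividing cells and more RNA in each dividing cell cannot be told apart. All p-values rest on these libraries, 2 to a genotype. Those of edgeR, DESeq2 and limma take part of the spread of each gene from the other genes.

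Against a background of 12.7% of tested genes called higher, 9 of the 10 mitotic genes were. Both Dis3-/- libraries lay above both wild-type libraries for 10 of the 10, against 31.9% of all tested genes. The median log2 fold change of the 10 was 1.47, with a range from 0.84 to 1.98, beside a median of 0.00 over all tested genes. The summed level of the 10 was 161 and 259.9 TPM in the wild-type and 558.5 and 598.6 TPM in the Dis3-/- libraries. Their mean rose from 210.5 ± 70.0 to 578.5 ± 28.4 TPM, a ratio of 2.75; the exact 2-sided permutation p was 0.333, the smallest that 2 against 2 libraries allow. The lower wild-type sum belongs to wild-type library 1, and the sums of the genotypes did not overlap.

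**Figure D1:**
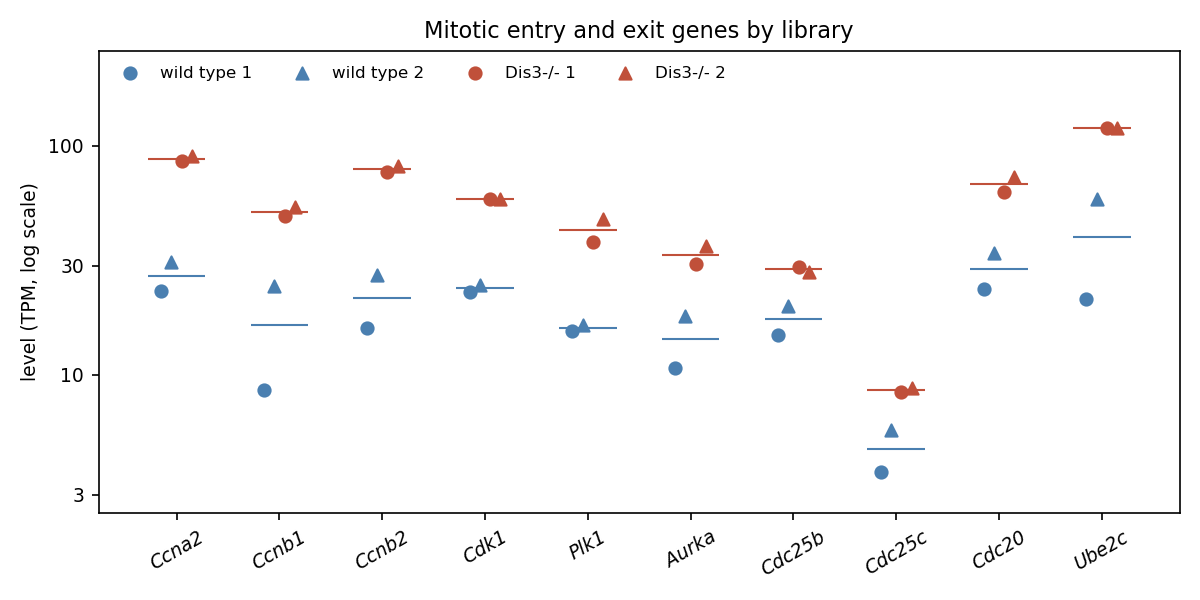
Level of each of the 10 genes in each library, in TPM on a log axis; circles and triangles are libraries 1 and 2 of a genotype, blue wild type and red Dis3-/-, and horizontal lines are means of 2. For every gene the red points lie above the blue ones, and the blue points are far apart for Ccnb1 (8.61 and 24.4 TPM) and Ube2c (21.5 and 58.3 TPM).

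Cyclin A2 (Ccna2, chromosome 3, 36564865 to 36573038), the cyclin of S phase and of early mitotic entry, stood at 23.2 and 30.9 TPM in the wild-type and 85.6 and 89.9 TPM in the Dis3-/- libraries. The 2 Dis3-/- libraries nearly coincide, and the lower of them holds 3.0 times the CPM of the higher wild-type library. Ccna2 rose by 1.81 ± 0.13 on the log2 scale (95% interval 1.53 to 2.09; edgeR adjusted p = 1.82e-06), a 3.5-fold increase. Its counts were 182 and 224 in wild-type, against 634 and 698 in Dis3-/- libraries. It had the smallest adjusted p of the 10 genes, and it stayed called in 12 of 12 alternative analyses, at log2 values from 1.60 to 2.04.

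Ccna2 meets the exosome gene Exosc9 tail to tail: Exosc9 lies on the plus strand of chromosome 3 at 36552606 to 36565727, so that the 3′ ends of the genes overlap. Ccna2 was the only 1 of the 10 with fractional counts, and in each library its count and that of Exosc9 added up to a whole number (345, 358, 806 and 879), which is how reads divided by estimate between a pair of genes appear. Whether the counting used strand is not stated in the sources. Exosc9 held 163 and 134 counts in wild-type, against 172 and 181 in Dis3-/- libraries (log2 fold change 0.35 ± 0.16; edgeR adjusted p = 0.124). The pair together stood at 53.3 ± 5.05 CPM in wild-type and 136.5 ± 1.26 CPM in Dis3-/- libraries, a ratio of 2.56. That ratio holds whichever gene of the pair the shared reads are given to.

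Cyclin B1 (Ccnb1, chromosome 13, 100778739 to 100786486), the main partner of Cdk1 at mitotic entry, stood at 8.61 and 24.4 TPM in the wild-type and 49.2 and 53.9 TPM in the Dis3-/- libraries. Its counts were 55, 144, 297 and 341 in the same order. The wild-type libraries differ 2.89-fold in CPM (95% counting interval 2.10 to 4.01), the widest gap between replicates among the 10, yet both lie below the Dis3-/- libraries. Ccnb1 rose by 1.76 ± 0.29 on the log2 scale (interval 1.14 to 2.39; edgeR adjusted p = 7.52e-04). The log2 value was 1.18 without wild-type library 1 and 2.7 without wild-type library 2. The call was lost in 4 of 12 alternative analyses: DESeq2 (adjusted p = 0.0844), edgeR with robust shrinkage (0.169) and limma on log2(TPM + 1) with and without a filter on low values (0.0526 and 0.0963).

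Cyclin B2 (Ccnb2, chromosome 9, 70407689 to 70421554), the other B-type partner of Cdk1, stood at 16.03 and 27.39 TPM in the wild-type and 76.7 and 81.9 TPM in the Dis3-/- libraries. The lower Dis3-/- library exceeds the higher wild-type library 3.04-fold in CPM, the clearest separation among the 10. Ccnb2 had the largest increase of the set, 1.98 ± 0.20 on the log2 scale (interval 1.55 to 2.41; edgeR adjusted p = 2.02e-05). By size of log2 fold change it ranked 95 among the 12244 tested genes.

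The proportions of the 3 cyclins were compared next, per length of transcript. Ccna2 made up 48.5% and 37.4% of their summed TPM in the wild-type, against 40.5% and 39.8% in the Dis3-/- libraries. Ccnb1 made up 18.01% and 29.51% in wild-type, against 23.3% and 23.9% in Dis3-/- libraries. For both, the Dis3-/- values lie between those of the wild-type libraries, so the genotypes overlap. Ccnb2 made up 33.5% and 33.1% in wild-type, against 36.3% and 36.3% in Dis3-/- libraries, and these do not overlap (exact 2-sided permutation p = 0.333, the smallest possible). The sum of the 3 was 47.8 and 82.8 TPM in wild-type and 211.4 and 225.7 TPM in Dis3-/- libraries.

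Cdk1 (chromosome 10, 69335146 to 69352912), the kinase that all 3 cyclins bind, stood at 23.0 and 24.7 TPM in the wild-type and 58.8 and 58.7 TPM in the Dis3-/- libraries. Replicates of both genotypes nearly coincide, with counts of 184 and 182 in wild-type, against 444 and 464 in Dis3-/- libraries. Cdk1 rose by 1.41 ± 0.12 on the log2 scale (interval 1.15 to 1.67; edgeR adjusted p = 6.37e-06). This is a 2.66-fold increase, with values between 1.27 and 1.47 in 12 alternative analyses, all of which called it. The summed cyclin level per unit of Cdk1 was 2.08 and 3.35 in wild-type, against 3.595 and 3.847 in Dis3-/- libraries; the genotypes did not overlap, and the low value is again that of wild-type library 1.

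Plk1 (chromosome 7, 122159435 to 122169884), the Polo kinase of mitotic entry and spindle assembly, stood at 15.5 and 16.4 TPM in the wild-type and 38.1 and 48.0 TPM in the Dis3-/- libraries. Here the wild-type libraries coincide and the Dis3-/- libraries differ, by 1.23-fold in CPM (95% counting interval 1.03 to 1.47). Plk1 rose by 1.54 ± 0.17 on the log2 scale (interval 1.18 to 1.90; edgeR adjusted p = 4.00e-05). Aurka (chromosome 2, 172356190 to 172370886), the Aurora kinase of centrosomes and spindle poles, stood at 10.7 and 18.1 TPM in the wild-type and 30.3 and 36.7 TPM in the Dis3-/- libraries. The wild-type libraries differ 1.72-fold in CPM (95% counting interval 1.215 to 2.464). For the Dis3-/- libraries the ratio was 1.18, with an interval that includes 1 (0.946 to 1.47). The lower Dis3-/- library is still 1.82 times the higher wild-type library in CPM. Aurka rose by 1.34 ± 0.23 on the log2 scale (interval 0.84 to 1.84; edgeR adjusted p = 1.17e-03). Its call was lost in 1 of 12 alternative analyses, limma on log2(TPM + 1) without a filter (adjusted p = 0.0728).

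The phosphatases that activate Cdk1 had the smallest log2 fold changes of the 10. Cdc25b (chromosome 2, 131186436 to 131198511) stood at 14.87 and 20.05 TPM in the wild-type and 29.5 and 28.3 TPM in the Dis3-/- libraries. The lower Dis3-/- library is 1.49 times the higher wild-type library in CPM, the narrowest separation of the 10. Cdc25b rose by 0.84 ± 0.17 on the log2 scale (interval 0.48 to 1.20; edgeR adjusted p = 2.76e-03), and limma on log2(TPM + 1) did not call it with or without a filter (adjusted p = 0.0503 and 0.0862). Cdc25c (chromosome 18, 34732993 to 34751564) was the scarcest of the 10, at 3.78 and 5.73 TPM in the wild-type and 8.39 and 8.78 TPM in the Dis3-/- libraries. The libraries do not overlap, but they rest on 20, 28, 42 and 46 counts. Its log2 fold change was 0.96 ± 0.37 (interval 0.16 to 1.77; edgeR adjusted p = 0.0779), which did not pass the threshold here or in 12 of 12 alternative analyses (adjusted p from 0.0536 to 0.345). The interval of Cdc25c covers the value of Cdc25b, and a difference between them was not tested.

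Cdc25a, the family member that also acts earlier in the cycle, stood at 37.2 ± 1.77 TPM in wild-type and 42.0 ± 4.11 TPM in Dis3-/- libraries (log2 fold change 0.28 ± 0.11; edgeR adjusted p = 0.0856). The 3 Cdc25 genes together gave 57.1 and 61.8 TPM in wild-type and 77.0 and 81.9 TPM in Dis3-/- libraries. Cdc25b and Cdc25c made up 32.6% and 41.7% of that sum in wild-type, against 49.3% and 45.2% in Dis3-/- libraries, which do not overlap.

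Of the exit factors, Cdc20 (chromosome 4, 118432901 to 118437343), the activator that brings substrates to the APC/C in mitosis, stood at 23.8 and 33.9 TPM in the wild-type and 62.9 and 73.3 TPM in the Dis3-/- libraries. The wild-type libraries differ 1.45-fold in CPM (95% counting interval 1.13 to 1.86). For the Dis3-/- libraries the ratio was 1.13, with an interval that includes 1 (0.966 to 1.33). The genotypes do not overlap. Cdc20 rose by 1.35 ± 0.17 on the log2 scale (interval 0.99 to 1.72; edgeR adjusted p = 1.04e-04). Ube2c (chromosome 2, 164769929 to 164772902), the enzyme that starts ubiquitin chains for the APC/C, stood at 21.5 and 58.3 TPM in the wild-type and 119.0 and 119.2 TPM in the Dis3-/- libraries. The Dis3-/- libraries coincide, while the wild-type libraries differ 2.76-fold in CPM (95% counting interval 1.97 to 3.91). Ube2c rose by 1.70 ± 0.29 on the log2 scale (interval 1.08 to 2.31; edgeR adjusted p = 9.32e-04). Without wild-type library 1 its log2 value was 1.13, and without wild-type library 2 it was 2.58. Like Ccnb1 it lost its call in 4 of 12 alternative analyses: DESeq2 (adjusted p = 0.0823), edgeR with robust shrinkage (0.115) and limma on log2(TPM + 1) with and without a filter (0.0521 and 0.0956).

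**Figure D2:**
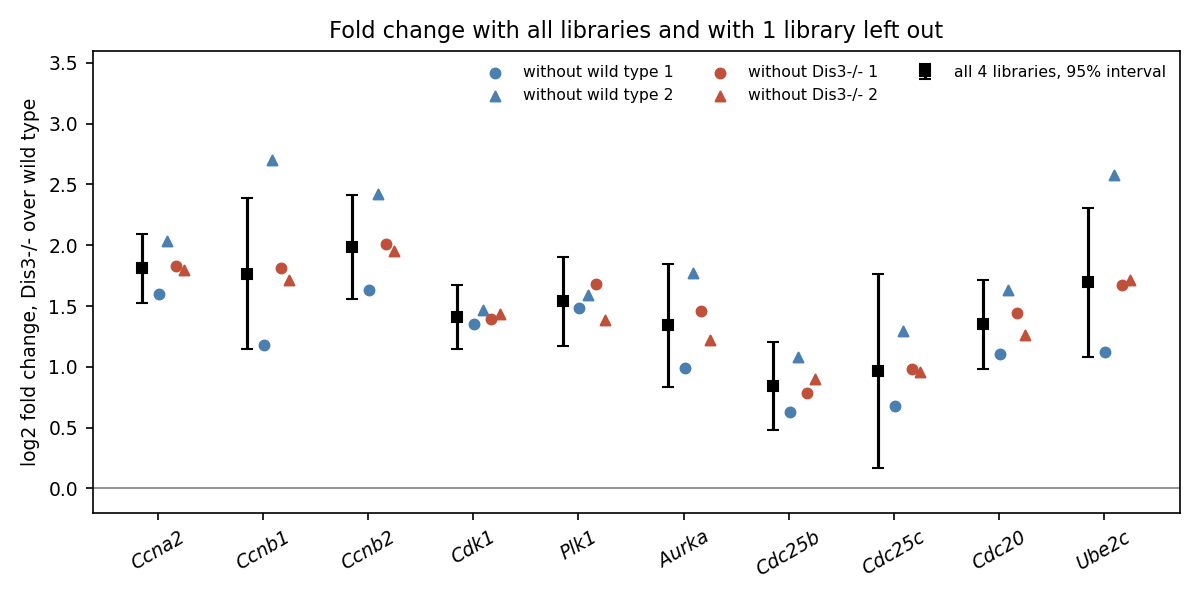
Log2 fold change of each gene, Dis3-/- over wild type, with all 4 libraries (black squares, bars are 95% intervals) and with 1 library left out (coloured points). Every point lies above 0, and the widest spreads belong to Ccnb1 (1.18 to 2.7) and Ube2c (1.13 to 2.58).

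Per length of transcript, the levels of the 10 genes in the Dis3-/- libraries fell in one order in both libraries: Ube2c, Ccna2, Ccnb2, Cdc20, Cdk1, Ccnb1, Plk1, Aurka, Cdc25b and Cdc25c. The TPM ranges of neighbours in this order did not overlap between the 2 libraries. In wild-type cells the order of the means began with Ube2c, Cdc20 and Ccna2 and ended with Plk1, Aurka and Cdc25c, and all neighbours overlapped but Aurka and Cdc25c. Cdc25b ranked 7 in each wild-type library and 9 in each Dis3-/- library, and Ccnb2 ranked 5 and 4 in the wild-type and 3 in each Dis3-/- library.

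The wild-type libraries differed from each other in these genes. All 10 were higher in wild-type library 2 than in library 1, with a median log2 ratio of 0.58. Among the 7145 tested genes in the same range of mean CPM over all 4 libraries (5.40 to 69.4), the median was 0.00. Of these, 9.77% differed by 0.5 or more on the log2 scale in either direction, against 6 of the 10. In wild type alone the means of the 10 were lower, from 3.66 to 30.9 CPM, so the range does not match their wild-type depth. The ratio exceeded 1 beyond counting error for Ccna2 (1.36), Ccnb1 (2.89), Ccnb2 (1.74), Aurka (1.72), Cdc25b (1.37), Cdc20 (1.45) and Ube2c (2.76). For Cdk1 (1.09), Plk1 (1.08) and Cdc25c (1.54) the counting interval included 1. Between the Dis3-/- libraries the median log2 ratio was 0.04 and 0 of the 10 reached 0.5. Intervals cover counting error only. Leaving out wild-type library 1 lowered the median log2 fold change of the 10 to 1.15, and leaving out wild-type library 2 raised it to 1.70. With 1 wild-type library left, the fit holds no wild-type spread, so its calls cannot test the gap between wild-type libraries.

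**Figure D3:**
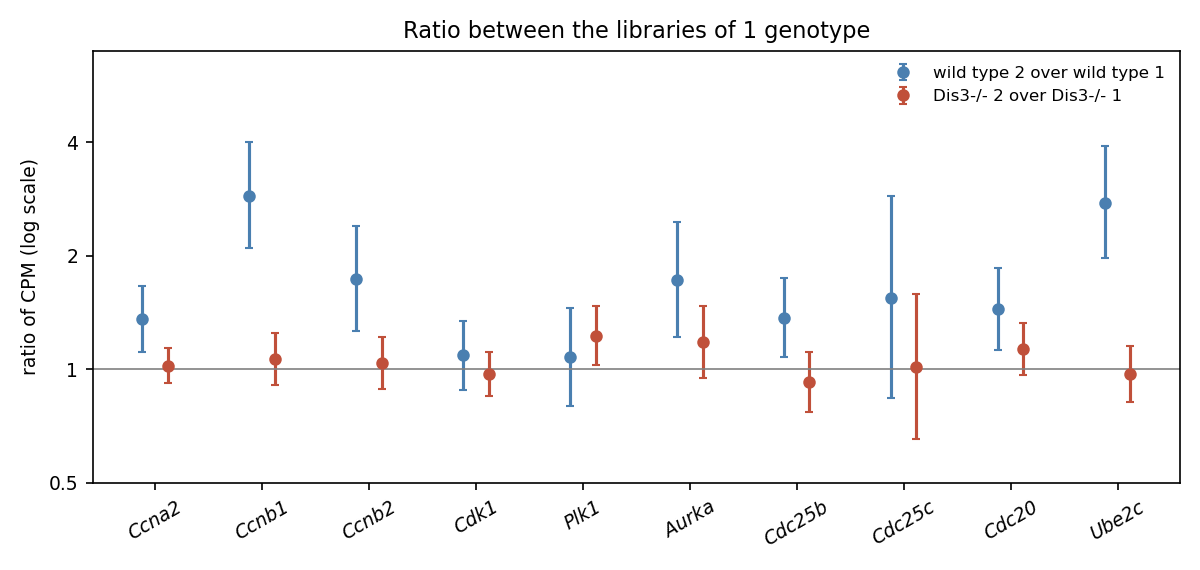
Ratio of CPM between the 2 libraries of 1 genotype for each gene, on a log axis with 95% counting intervals; blue is wild type 2 over wild type 1 and red is Dis3-/- 2 over Dis3-/- 1. The blue points all lie above 1, up to 2.89 for Ccnb1, and the red points lie between 0.925 and 1.23.

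Among other partners of Cdk1 and related cyclins, 5 of the 9 tested genes were called higher and 0 lower, and the median log2 fold change was 0.84. Cks1b, a small subunit that docks on Cdk1, stood at 75.9 ± 19.4 TPM in wild-type and 156.7 ± 7.40 TPM in Dis3-/- libraries and rose by 1.15 ± 0.17 on the log2 scale (edgeR adjusted p = 3.95e-04). Its relative Cks2 rose by 0.84 ± 0.24 (adjusted p = 0.0241), a call lost in 6 of 12 alternative analyses, among them leaving out wild-type library 1, which lowered the value to 0.42; without wild-type library 2 it was 1.39. The cyclins of the G1 to S transition rose too, Ccne1 by 1.47 ± 0.28 (adjusted p = 2.13e-03) and Ccne2 by 0.91 ± 0.20 (5.11e-03). Ccnf, a cyclin-like ubiquitin ligase subunit, rose by 0.85 ± 0.20 (7.84e-03), with values of 0.49 without wild-type library 1 and 1.32 without wild-type library 2, and lost its call in the 3 fits on TPM (adjusted p from 0.0900 to 0.163). Ccna1 and Ccnb3, which are known from germ cells, had 0 counts in all 4 libraries; the floor of 3 counts amounts to 0.432 to 0.505 CPM.

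The list of Cdk1 inhibition held inhibitory kinases, checkpoint genes, opposing phosphatases and their regulators, and also the activating phosphatase Cdc25a. Of its 19 tested genes, 6 were called higher and 1 lower, and the median log2 fold change was 0.18. Wee1 stood at 90.8 and 72.3 TPM in wild-type and 64.2 and 79.0 TPM in Dis3-/- libraries, which overlap (log2 fold change -0.08 ± 0.11; edgeR adjusted p = 0.674). Pkmyt1 rose by 0.59 ± 0.19 (adjusted p = 0.0359), and Mastl, the kinase that restrains PP2A in mitosis, by 0.65 ± 0.21 (0.0383). These 2 calls were lost in 6 and 9 of 12 alternative analyses. Chek1, the checkpoint kinase that holds back Cdc25, rose by 0.65 ± 0.13 (2.86e-03). The phosphatase subunits Ppp1cc, Ppp1ca and Ppp2ca rose by 0.38, 0.35 and 0.24, and the call of Ppp2ca was lost in 8 of 12 alternative analyses. Cdc14b, a phosphatase, fell by 0.77 on the log2 scale (adjusted p = 0.0383), a call lost in 7 of 12 alternative analyses; without Dis3-/- library 2 its log2 fold change was -0.45.

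The level of Cdk1 relative to that of Wee1 was 0.254 and 0.342 in the wild-type, against 0.917 and 0.743 in the Dis3-/- libraries, in TPM. The genotypes do not overlap, and their means differ 2.79-fold. With Pkmyt1 added to Wee1 the ratios were 0.211, 0.260, 0.650 and 0.535 in the same order. The exact 2-sided permutation p was 0.333 for each, the smallest that the design allows. These are ratios of transcripts and say nothing of protein or of phosphorylation.

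Of the kinases and cofactors around Plk1 and Aurka, 11 of 16 tested genes were called higher and 0 lower. Their median log2 fold change was 1.26, the nearest of the lists to that of the 10 genes. Tpx2, which activates Aurora A on the spindle, rose by 1.66 ± 0.13 (edgeR adjusted p = 3.93e-06). Aurkb, the Aurora kinase of centromeres, rose by 1.74 ± 0.16 (1.02e-05), and its partner Incenp by 1.03 ± 0.10 (2.22e-05). Bub1, a kinase of the spindle checkpoint, rose by 1.59 ± 0.16 (1.65e-05). Bora, the cofactor through which Aurora A reaches Plk1, stood at 42.5 ± 3.17 TPM in wild-type and 48.9 ± 6.73 TPM in Dis3-/- libraries (log2 fold change 0.31 ± 0.13; adjusted p = 0.108), and was called without Dis3-/- library 1, at 0.43 (adjusted p = 0.0496). Plk2, a Polo kinase with roles outside mitosis, was not called at a log2 fold change of -0.34 ± 0.25 (adjusted p = 0.372), but its wild-type libraries stood far apart, at 40.7 and 92.6 TPM. Without wild-type library 1 the value of Plk2 was -0.83 (adjusted p = 7.50e-05), without wild-type library 2 it was 0.38 (0.0874), and without a filter it was called at -0.34 (0.0224).

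Of the 14 subunit genes of the APC/C itself, 1 (7.14%) was called higher, beside 12.7% of all tested genes, and 0 lower, and the median log2 fold change was 0.18. The called gene, Anapc5, rose by 0.30 ± 0.07 (edgeR adjusted p = 9.53e-03), a call lost in 3 of 12 alternative analyses, those on TPM. Of 15 tested activators, inhibitors and substrates of the APC/C, 7 were called higher and 0 lower, with a median of 0.50. Espl1, the separase that opens cohesin at anaphase, rose by 1.93 ± 0.14 (1.61e-06). The checkpoint genes Bub1b and Mad2l1, whose proteins hold Cdc20 inactive, rose by 1.497 ± 0.127 (6.16e-06) and 1.09 ± 0.16 (2.89e-04). Fbxo5, the inhibitor Emi1, rose by 1.33 ± 0.21 (5.44e-04).

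Fzr1, the activator that takes over from Cdc20 after mitosis and in G1, stood at 51.2 and 59.0 TPM in wild-type and 62.7 and 65.1 TPM in Dis3-/- libraries (log2 fold change 0.33 ± 0.12; edgeR adjusted p = 0.0644). Fzr1 was called without wild-type library 2, at 0.44 (adjusted p = 0.0433). The ratio of Cdc20 to Fzr1 was 0.465 and 0.575 in wild-type, against 1.003 and 1.126 in Dis3-/- libraries, with means 2.05-fold apart and no overlap. Ube2s, which lengthens the chains that Ube2c begins, rose by 0.50 ± 0.15 (adjusted p = 0.0252), a call lost in 5 of 12 alternative analyses. The ratio of Ube2c to Ube2s was 0.323 and 0.865 in wild-type, against 1.41 and 1.31 in Dis3-/- libraries. For both ratios the exact 2-sided permutation p was 0.333.

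**Figure D4:**
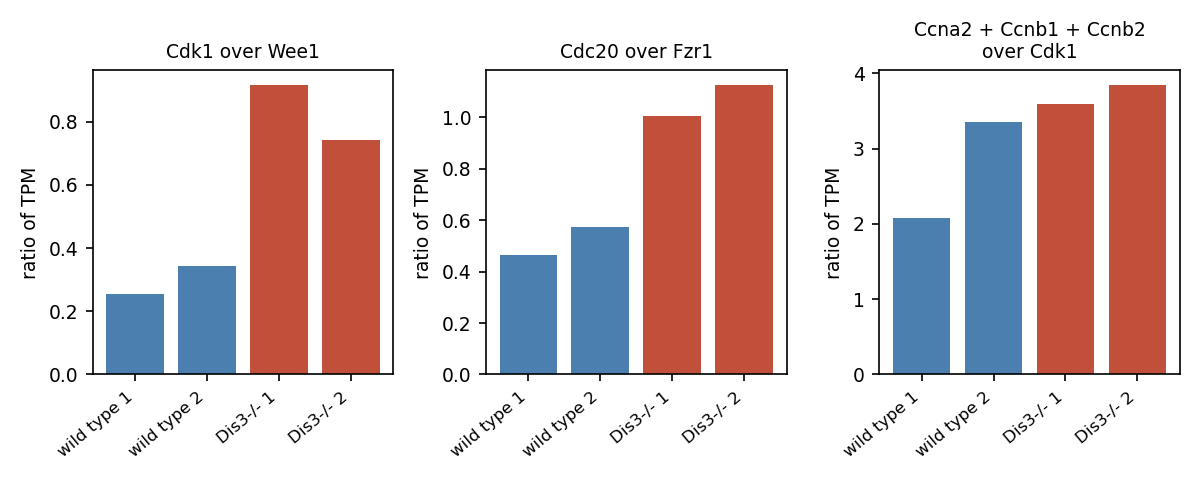
Ratios of TPM within each library: Cdk1 over Wee1, Cdc20 over Fzr1, and the 3 cyclins summed over Cdk1, with 1 bar per library and axes from 0. Both Dis3-/- bars exceed both wild-type bars in each panel, with Cdk1 over Wee1 rising from 0.254 and 0.342 to 0.917 and 0.743.

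Of 16 tested regulators that are known to act on such promoters (MuvB, B-Myb, Foxm1, NF-Y and the E2F partners), 7 were called higher and 0 lower, and the median log2 fold change was 0.28. Foxm1, an activator of genes of late cell cycle, stood at 13.23 and 13.97 TPM in wild-type and 33.9 and 42.8 TPM in Dis3-/- libraries and rose by 1.61 ± 0.14 (edgeR adjusted p = 6.37e-06). Mybl2, which encodes B-Myb, stood at 19.9 and 19.5 TPM in wild-type and 51.3 and 43.6 TPM in Dis3-/- libraries and rose by 1.38 ± 0.13 (1.16e-05). In neither gene do the genotypes overlap. Tfdp1 and Rbbp4, an E2F partner and a MuvB subunit, rose by 0.48 and 0.41 (1.12e-03 and 2.13e-03). Rbl2, which encodes p130, the pocket protein of resting cells, had a log2 fold change of 0.19 ± 0.08 (adjusted p = 0.108). Among the genes named from these lists, Ccne2, Chek1, Ppp1ca, Tfdp1 and Rbbp4 lost their calls in 1 of 12 alternative analyses, limma on log2(TPM + 1) without a filter, and Ppp1cc lost its call in that fit and in the filtered one. Over the 6 lists, 38 of 89 tested genes were called, 37 of them higher; at an unadjusted edgeR p below 0.05 there were 49 higher and 3 lower, and DESeq2 called 29 higher and 0 lower.

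**Figure D5:**
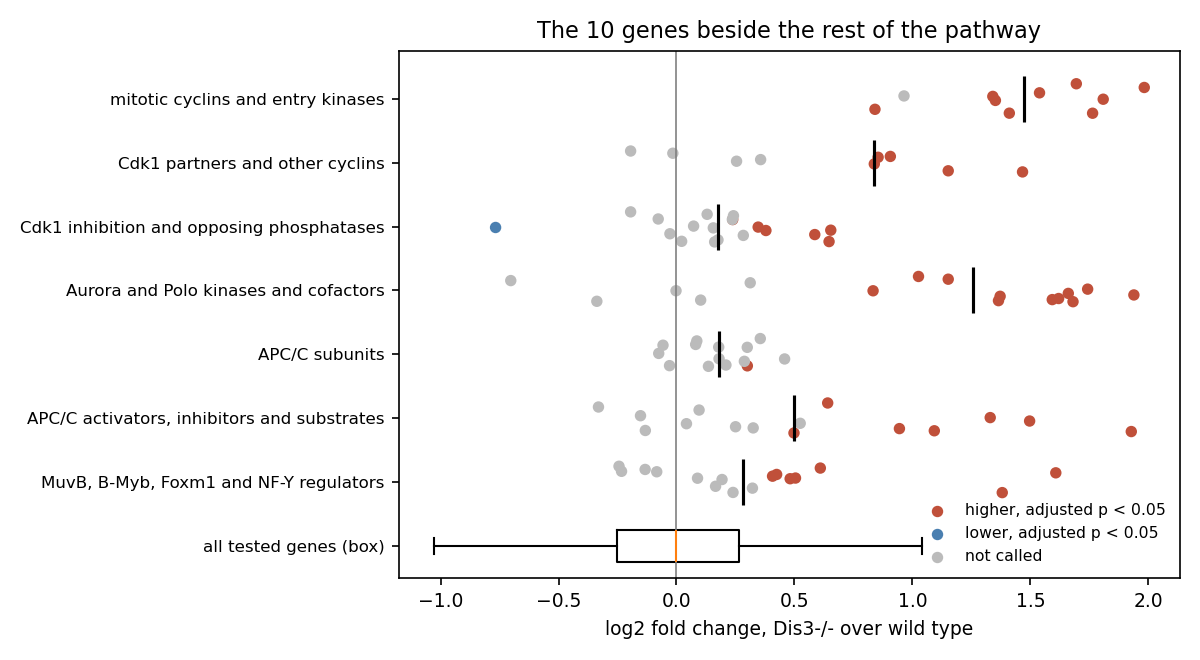
Log2 fold change, Dis3-/- over wild type, of each tested gene in the 10-gene set and 6 related lists, with the median as a black bar, colour by call (edgeR adjusted p below 0.05) and all tested genes as a box plot without outlying points. The 10 genes (median 1.47) and the Aurora and Polo list (1.26) lie to the right, and the APC/C subunits (0.18) lie near the box.

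Of the genes annotated within 5 kb of the 10, 7 besides Exosc9 had enough reads to be tested, and 2 of these 7 were called, 1 higher and 1 lower, beside 12.7% and 10.2% of all tested genes. Cenph, a kinetochore gene 2836 bases from Ccnb1, rose by 1.01 ± 0.25 on the log2 scale (edgeR adjusted p = 0.0117). Rnf111, 3870 bases from Ccnb2, fell by 0.35 (adjusted p = 0.0132). Cstf1, which overlaps Aurka on the opposite strand, and Elovl1, which overlaps Cdc20 on the opposite strand, had log2 fold changes of 0.24 ± 0.13 (0.186) and 0.19 ± 0.14 (0.350). Bbs7 beside Ccna2, Fam210b beside Aurka and Dnttip1 beside Ube2c lay between 0.02 and 0.08 and were not called. Ern2, 9 bases from Plk1, had 1 count in 1 library.

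Marker genes of other blood cells were measured beside the 10 mitotic genes. The background for the calls below is all tested genes, of which 12.7% were called higher and 10.2% lower. Of 8 multipotent and lymphoid progenitor markers 5 were tested, 0 were called higher and 4 lower, and their summed level was 598.2 and 640.8 CPM in wild-type and 461.2 and 436.9 CPM in Dis3-/- libraries. Of 12 granulocyte and monocyte markers 4 were tested, 0 were called higher and 2 lower, with sums of 431.5, 431.8, 327.0 and 315.8 CPM in the same order. Of 11 erythroid and 8 megakaryocyte markers 5 and 6 were tested, 0 were called higher and 1 of each lower. Of 8 B cell and 8 T and NK cell markers 1 and 4 were tested and 0 were called. Car1, Hba-a2, Hbb-bs, Ctsg, Ly6c2, Ebf1, Ms4a1, Igll1, Cd3e, Cd3g, Il7r and Rag1 had 0 counts in all 4 libraries. Over these 6 lists of other cell types, with 25 tested genes, edgeR called 0 higher, and DESeq2 called 0 higher and 6 lower; at an unadjusted edgeR p below 0.05 there were 2 higher and 11 lower. Of 12 stem cell markers, 1 was called higher and 5 lower, and their sum was 3487 and 3125 CPM in wild-type and 2460 and 2451 CPM in Dis3-/- libraries. Cd48, whose product the sort excluded, had a log2 fold change of -0.57 (edgeR adjusted p = 0.0627).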

How the data were processed

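RNA of 2 wild-type and 2 Dis3-/- stem cell libraries was analysed, grouped by the genotype in the labels. Per the submitters' processing notes, the tools were STAR 2.7.8a, RSEM 1.3.3 and Trim Galore 0.6.6 and the build mm10; what each did, the gene annotation and whether strand was used were not given in the sources used here. The authors deposited a table of expected counts (unnormalized estimates per gene), in which reads shared by several genes are divided by estimate. A second table deposited by the authors gives TPM, scaled for gene length to a common total.

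Expected counts were rounded for edgeR 4.0.16 under R 4.3.3 (filterByExpr, minimum count of 10 and minimum total of 15, TMM, 2-sided quasi-likelihood test, Benjamini-Hochberg adjustment over the 12244 genes, threshold 0.05). CPM uses TMM-scaled library sizes; SE is the size of the change divided by the root of F. The procedure was tested on simulated counts. Alternatives, 12 in all, were relative log expression scaling, no filter, robust shrinkage, DESeq2 1.42.0, limma 3.58.1 on log2(TPM + 1) or log2(TPM + 0.1) with a mean TPM of at least 1, the former also unfiltered, a replicate block, and leaving out each library. Ratios and shares were tested by exact permutation over libraries. Depth of 6085367 to 6818535 counts puts 3 counts at 0.432 to 0.505 CPM. Replicate libraries differed beyond counting noise (chi-square per degree of freedom 3.19 and 3.64).

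The 10 genes and all lists were chosen with earlier results of these data known. Named genes were the 10; up to 4 called genes with the smallest p per list plus fixed pathway genes; Dis3; genes within 5 kb of the 10; and the 5 genes of nearest profile. Plk2, the sort markers, the markers at 0 counts, Ccna1, Ccnb3 and the genes named for their replicate ratios were picked after their values were seen. Positions and promoters are from RefSeq (GRCm38.p6).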

Additional observations from a re-analysis of the deposited data

How the results depend on the processing

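Of the 10 genes, 9 were called with relative log expression scaling, without a filter, with the replicate block and on log2(TPM + 0.1). DESeq2 and robust shrinkage called 7, limma on log2(TPM + 1) called 6, and the same without a filter called 5. Over all genes DESeq2 called 1742 (1000 higher, 742 lower), log2(TPM + 1) called 1778 (805 higher), log2(TPM + 0.1) called 890 higher, and log2(TPM + 1) without a filter called 950 (479 higher, 471 lower). On those 3 TPM settings, in that order, the Cdk1 partners had 3, 3 and 2 calls, the list of Cdk1 inhibition 2, 3 and 0 (DESeq2 3), and the APC/C subunits 0, 0 and 0. Over the 6 lists log2(TPM + 1) called 25 genes, and 16 without a filter, among them 6 of the Aurora and Polo list and 2 of the regulators. The cause of the lower counts was not tested.

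Leaving out 1 library, with the lone sample of that genotype assumed to vary like the others, gave 3 to 6 calls in the list of Cdk1 inhibition (7 with all) and 1 to 2 among APC/C subunits. The difference in the Ccna2 share of the cyclins, -2.78 percentage points with all libraries, ran from -8.315 to 2.761, positive without wild-type library 1. That of Ccnb1 ran from -5.932 without wild-type library 1 to 5.57 without wild-type library 2 and was 0.132 without Dis3-/- library 1. The labels number the libraries of each genotype and state no pairing between same-numbered ones. The correlation of their deviations was -0.0293, and whether they were handled together was not tested. The replicate block gave 9 calls among the 10 genes and 2614 over all genes. Of the 10 genes Cdc25c had the fewest counts, 20 to 46 per library.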

Other observations

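Outside the pathway lists, the genes whose levels over the 4 libraries lay nearest to the mean profile of the 10 mitotic genes were Fancd2, Trip13, Recql4, Kpna2 and D430020J02Rik, among 9425 other tested genes of mean CPM 10 or more. The measure was the root mean square distance in centred log2 CPM over the 4 libraries. Fancd2, a Fanconi anemia repair gene, lay at a distance of 0.0320 and stood at 6.02 and 9.62 TPM in wild-type and 20.4 and 21.3 TPM in Dis3-/- libraries. Trip13, an ATPase that takes apart spindle checkpoint complexes, lay at 0.0712 and stood at 11.7 and 19.4 TPM in wild-type and 35.4 and 43.5 TPM in Dis3-/- libraries. Kpna2, a nuclear import adaptor, lay at 0.0997 and stood at 26.4 and 45.5 TPM in wild-type and 85.2 and 107.7 TPM in Dis3-/- libraries. Recql4, a DNA helicase gene, and D430020J02Rik lay at 0.0944 and 0.108. The mean centred profile of the 10 genes was -1.08 and -0.41 in wild-type, against 0.71 and 0.78 in Dis3-/- libraries, in log2 CPM.

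The gap between the wild-type libraries was uneven over the mitotic genes. Among the 37 genes of the 6 lists called higher, the ratio of wild-type library 2 to library 1 had a median of 1.075 and exceeded 1.5 in 3: Nek2 (3.46), Cks2 (1.97) and Ccnf (1.79). Among the 10 genes the median ratio was 1.495 and 5 exceeded 1.5. Nek2, a centrosome kinase, held 35 and 110 counts in wild-type, against 204 and 217 in Dis3-/- libraries, a pattern close to that of Ccnb1 and Ube2c. The ratio exceeded 1 in 24 of the 37 genes. Among the rest, Gsg2 (0.683, the lowest), Birc5 (0.759), Fbxo5 (0.785), Melk (0.800) and Tpx2 (0.956) were lower in CPM in wild-type library 2. These genes nevertheless rose with the 10 genes in Dis3-/- libraries, though the call of Gsg2 was lost in 4 of 12 alternative analyses. In TPM the direction of Birc5 was reversed, at 9.9 in wild-type library 1 and 12.95 in wild-type library 2. Cdk1 and Plk1, at 1.09 and 1.08, lay near 1. The source of the gap was not tested, and with 2 wild-type libraries it is a single difference.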
